A study of Mus musculus with 18 samples.

Results

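The genes of oxidative phosphorylation that are encoded in the nucleus were followed through the testes of Zfp541 mutant mice. Members were the genes whose symbol names a subunit or assembly factor of respiratory complexes I to IV, a cytochrome c or a subunit of ATP synthase (symbols beginning Ndufa, Ndufb, Ndufc, Ndufs, Ndufv, Sdha to Sdhd, Uqcr, Uqcc, Cox followed by a digit, or Atp5, with Cycs and Cyct). The rule found 116 symbols among the 55291 of the P18 tables, of which 91 were subunits or cytochromes c and 25 were assembly factors. Complex I had 41 subunits and 8 assembly factors, complex II 4 and 4, complex III 8 and 3, complex IV 19 and 10, ATP synthase 17 subunits, and cytochrome c 2 genes. The gene annotation lists 5 of the symbols as processed pseudogenes (Cox6c2, Cox20b, Ndufa11b, Ndufb4c and Ndufs6b), and these are included in the counts of subunits and assembly factors. On the X chromosome lie 3 members (Cox7b, Ndufa1 and Ndufb11).

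Male C57BL/6J mice carrying 1 mutant Zfp541 allele (Zfp541+/-, Het) were compared with homozygous mutants (Zfp541-/-, KO). Polyadenylated RNA was sequenced from testicular cells at postnatal day 14 (P14), from testicular cells at P18 and from spermatocytes at P18, with 3 libraries per genotype in each of these 3 sets and 18 libraries in all. Every animal carried at least 1 mutant allele, so that no wild-type value is given here. The series calls the libraries biological replicates, but its labels tie none of them to an animal, so the p-values below measure the spread between these libraries. How the spermatocytes were isolated is not given in the labels.

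The respiratory chain passes electrons from NADH (complex I) and succinate (complex II) through complex III and the small carrier cytochrome c to complex IV, cytochrome c oxidase, which reduces oxygen. Complexes I, III and IV pump protons across the inner mitochondrial membrane, and ATP synthase uses the gradient to make ATP. Complex IV and cytochrome c have paralogues that are made mainly in male germ cells: Cox6b2, Cox7b2 and Cox8c stand beside the somatic Cox6b1, Cox7b and Cox8a, and testis cytochrome c (Cyct) stands beside Cycs.

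The results turn on these isoform pairs and on the complex I assembly factor Ndufaf3, so the 250 bases before the annotated gene start are shown for 3 of the pairs and for Ndufaf3, as given by RefSeq on GRCm38.p6. Capitals mark every match, on either strand, to 5 short motifs: NRF1 (GCGC, any base, then TGCGC), TGACGTCA (CRE), CCGGAAG (ETS), AACNGNC (MYB) and CCAAT. The first 4 motifs were chosen first, and CCAAT was added after the windows had been read. Each window is written 5′ to 3′ on the gene's strand: Cyct is at chr2:76360454-76360703 (minus strand), Cycs at chr6:50566570-50566819 (minus), Cox6b2 at chr7:4753095-4753344 (minus), Cox6b1 at chr7:30626115-30626364 (minus), Cox7b2 at chr5:71548206-71548455 (minus), Cox7b at chrX:106015450-106015699 (plus) and Ndufaf3 at chr9:108567437-108567686 (minus).
Cyct: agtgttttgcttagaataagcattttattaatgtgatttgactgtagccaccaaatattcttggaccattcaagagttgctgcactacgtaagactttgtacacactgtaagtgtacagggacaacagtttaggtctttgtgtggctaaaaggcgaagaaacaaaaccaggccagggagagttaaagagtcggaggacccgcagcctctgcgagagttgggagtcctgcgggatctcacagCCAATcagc
Cycs: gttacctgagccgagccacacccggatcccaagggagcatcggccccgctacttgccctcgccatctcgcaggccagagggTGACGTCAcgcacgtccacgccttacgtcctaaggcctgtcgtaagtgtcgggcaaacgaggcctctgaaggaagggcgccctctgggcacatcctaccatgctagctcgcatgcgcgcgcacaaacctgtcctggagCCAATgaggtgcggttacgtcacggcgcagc
Cox6b2: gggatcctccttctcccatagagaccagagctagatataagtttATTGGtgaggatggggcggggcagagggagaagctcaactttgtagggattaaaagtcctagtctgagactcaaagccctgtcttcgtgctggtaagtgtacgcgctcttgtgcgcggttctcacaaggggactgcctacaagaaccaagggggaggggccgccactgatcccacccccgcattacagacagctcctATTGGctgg
Cox6b1: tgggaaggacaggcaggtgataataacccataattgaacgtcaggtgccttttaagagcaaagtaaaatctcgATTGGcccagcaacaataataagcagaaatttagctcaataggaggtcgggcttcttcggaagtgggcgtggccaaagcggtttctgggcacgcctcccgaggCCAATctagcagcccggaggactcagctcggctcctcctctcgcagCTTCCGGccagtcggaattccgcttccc
Cox7b2: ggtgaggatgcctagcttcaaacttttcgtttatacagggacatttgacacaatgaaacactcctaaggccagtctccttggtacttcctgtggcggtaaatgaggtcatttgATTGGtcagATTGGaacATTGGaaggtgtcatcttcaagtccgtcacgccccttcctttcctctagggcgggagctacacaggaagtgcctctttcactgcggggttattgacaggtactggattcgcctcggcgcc
Cox7b: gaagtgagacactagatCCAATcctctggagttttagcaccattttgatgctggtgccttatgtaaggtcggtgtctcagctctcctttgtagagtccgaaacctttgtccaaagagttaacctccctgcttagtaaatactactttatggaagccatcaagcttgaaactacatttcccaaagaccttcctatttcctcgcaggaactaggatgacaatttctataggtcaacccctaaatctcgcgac
Ndufaf3: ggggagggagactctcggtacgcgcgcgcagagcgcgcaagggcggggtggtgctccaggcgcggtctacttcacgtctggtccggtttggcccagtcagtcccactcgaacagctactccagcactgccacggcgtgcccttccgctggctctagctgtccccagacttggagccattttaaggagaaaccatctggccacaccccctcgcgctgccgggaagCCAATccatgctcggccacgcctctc

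In the windows of Cyct, Cox6b2, Cox7b2 and Ndufaf3, CCAAT was the only one of the 5 motifs with a match. Cyct held 1 match (9 to 5 bases before the gene start), Cox6b2 held 2, Cox7b2 held 3 and Ndufaf3 held 1. Of the paralogues, Cycs held a CRE match and 1 CCAAT, Cox6b1 held an ETS match and 2 CCAAT, and Cox7b held 1 CCAAT. None of these matches overlapped another. RefSeq windows were found for 92 of the 116 members, and NRF1 matched 16.3% of them (15 genes) against 4.23% of all 27025 genes in the table. ETS matched 20.7% against 7.83%, CRE 5.43% against 1.77%, MYB 31.5% against 30.6% and CCAAT 44.6% against 37.5%. Among the 29 members with a window that were lower in KO in either P18 set, NRF1 matched 10.3%, ETS 10.3% and CCAAT 48.3%, and among the 63 others these shares were 19.0%, 25.4% and 42.9%. These are matches of letters, and binding was not measured.

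Levels are the deposited RPKM (P14) or FPKM (P18) values after rescaling within each set, and depth, read back from the values, was 9.26 to 18.3 M reads per library for spermatocytes, 12.8 to 16.9 for testis at P18 and 17.96 to 21.1 for P14. The median level over members was 29.8 in Het and 26.9 in KO testis at P18, 25.9 and 20.03 in spermatocytes, and 23.6 and 22.4 at P14. Zfp541 RNA fell in KO from 25.3 ± 4.69 to 10.2 ± 1.05 in P18 testis and from 43.1 ± 13.3 to 12.4 ± 0.954 in spermatocytes (SD, n = 3; limma with Benjamini-Hochberg adjustment, adjusted p = 0.00532 and 0.00147), and at P14 averaged 8.65 ± 0.956 and 4.04 ± 0.944 for Het and KO (limma adjusted p = 0.0862). It was not at 0 in any library, and the position of the mutation is not given in the labels. Summed levels of 18 Sertoli cell markers were 1671 to 2227 in the P18 testis libraries and 89.4 to 147 in the spermatocyte libraries. Leydig, macrophage, endothelial and erythroid sums were also lower in the spermatocyte libraries. The 15 early prophase markers summed to 1036 to 1414 in P18 testis and 1627 to 2052 in spermatocytes. The 15 spermatogonia markers rose as well, from 369 to 402 in testis to 574 to 715 in spermatocytes. The 6 peritubular myoid markers overlapped, at 114 to 159 in testis and 57.5 to 202 in spermatocytes. The 17 late spermatocyte markers (such as Piwil1, Ldhc and Pgk2) summed to 1109 to 2342 in P18 Het testis against 343 to 353 in KO, to 2106 to 4499 in Het spermatocytes against 357 to 420 in KO, and to 195 to 250 against 98.5 to 146 at P14. All libraries of P14 and P18 differ in age and in how they were processed, which cannot be told apart.

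The 4 testis isoforms and Ndufaf3 had the largest falls among the members called in both P18 sets. Cox8c, the testis form of the small complex IV subunit 8, lies at chr12:102899316-102900526 (GRCm38, plus strand). In P18 testis it was at 241, 165 and 114 FPKM in the Het libraries (replicates 1 to 3) and at 32.9, 31.8 and 31.9 in the KO libraries, which fell well below the lowest Het library. It fell 5.08-fold (log2 difference −2.35 ± 0.25 SE, adjusted p = 0.00503), where fold changes here are on the log2(value + 0.5) scale, which understates the change of low genes. In P18 spermatocytes Cox8c was at 210, 206 and 403 in Het and at 15.6, 16.1 and 20.8 in KO, 14.6-fold lower (−3.86 ± 0.27, adjusted p = 0.000259). At P14 it was already 24.4, 16.3 and 23.2 in Het against 5.78, 6.46 and 9.12 in KO, with no overlap, but the difference of −1.52 ± 0.21 did not pass over all genes (adjusted p = 0.0723). Cox8c had 58 to 223 reads per library at P14 and 85 to 2847 at P18. Fewer cells of a type and less RNA per cell cannot be told apart in such bulk samples.

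Cox6b2 (chr7:4751792-4753094, minus strand), the testis form of a complex IV subunit on the intermembrane side, was at 103, 77.8 and 69.1 FPKM in P18 Het testis and at 26.01, 29.1 and 26.7 in KO, 2.98-fold lower (−1.58 ± 0.15, adjusted p = 0.00449). In spermatocytes it was at 87.9, 70.6 and 149.8 in Het and at 16.3, 18.04 and 17.3 in KO, 5.55-fold lower (−2.47 ± 0.26, adjusted p = 0.000829). The KO libraries lay close together and the Het libraries spread, with replicate 1 highest in testis and replicate 3 highest in spermatocytes, for all 4 isoforms. The summed late spermatocyte markers of the Het libraries had the same order, at 2342, 1584 and 1109 in testis and 2503, 2106 and 4499 in spermatocytes, and their part in the result was not tested. At P14 the values were 23.0, 20.2 and 17.7 in Het and 11.1, 10.1 and 13.2 in KO, apart in every library but not past the test (−0.80 ± 0.12, adjusted p = 0.0851).

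Cox7b2 (chr5:71442824-71548205, minus strand), the autosomal testis counterpart of the X-linked Cox7b, was at 151.9, 111.7 and 97.1 FPKM in P18 Het testis and at 56.6, 53.7 and 45.0 in KO (2.28-fold lower, −1.19 ± 0.18, adjusted p = 0.00897). In spermatocytes the values were 118, 105 and 182 in Het and 45.3, 43.6 and 44.3 in KO (2.93-fold lower, −1.55 ± 0.20, adjusted p = 0.00181). Its fall was the smallest of the 4 in both P18 sets, and at P14 it was 40.5, 32.6 and 43.9 against 22.4, 23.8 and 26.6 (−0.67 ± 0.12, adjusted p = 0.109). Testis cytochrome c, Cyct (chr2:76353942-76360450, minus strand), was at 93.2, 71.6 and 57.9 FPKM in P18 Het testis and at 25.1, 22.5 and 24.2 in KO (3.01-fold lower, −1.59 ± 0.17, adjusted p = 0.00497). In spermatocytes Cyct was at 73.0, 68.2 and 112 in Het and at 18.6, 21.01 and 20.5 in KO (4.04-fold lower, −2.01 ± 0.19, adjusted p = 0.000579). At P14 the Het libraries at 21.6, 15.6 and 22.8 RPKM again lay above the KO libraries at 11.1, 12.5 and 14.2, with an adjusted p of 0.266 for the difference of −0.63 ± 0.16. All 4 isoforms remained past the threshold when any 1 library of a P18 set was left out (highest adjusted p 0.0462 in testis and 0.00924 in spermatocytes).

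**Figure D1:**
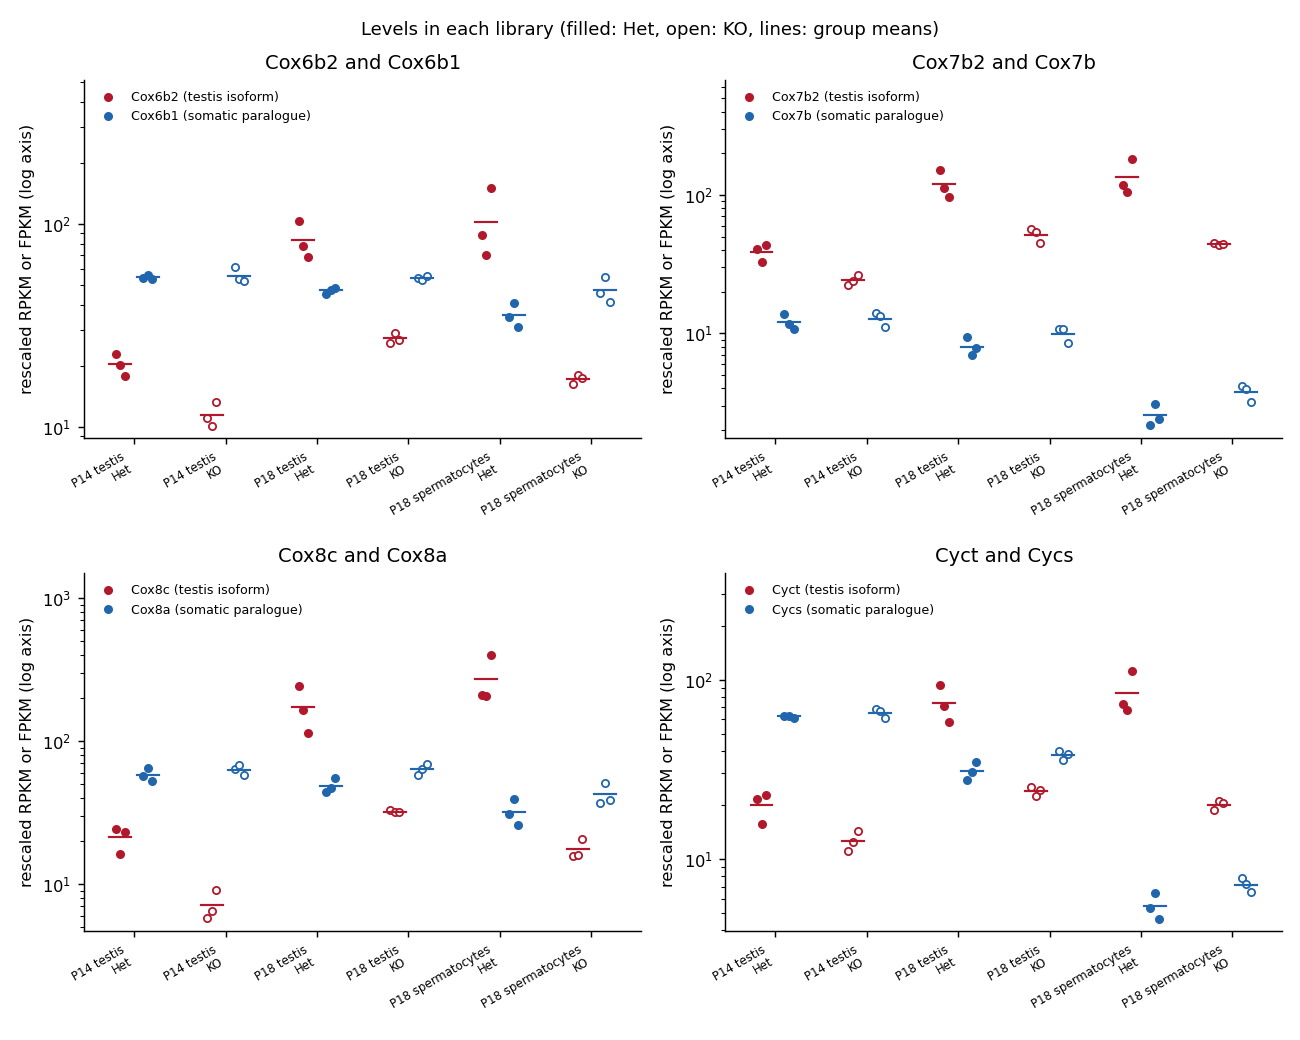
Each panel plots the level of a testis isoform (red) and its somatic paralogue (blue) in each of the 18 libraries by group, as rescaled RPKM (P14) or FPKM (P18) on a log axis, with filled points for Het, open points for KO and lines for group means. In both P18 sets the red KO points lie below the red Het points in all 4 panels, and each blue KO mean lies above the blue Het mean.

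The somatic paralogues did not fall. In P18 testis Cox6b1 rose from 45.3, 47.2 and 48.5 to 54.3, 52.7 and 55.4 (0.20 ± 0.05, adjusted p = 0.0399) and Cox8a rose from 44.4, 47.1 and 55.2 to 58.0, 64.1 and 69.3 (0.38 ± 0.10, adjusted p = 0.0443), with all KO libraries above all Het libraries for both. Both calls were lost without any library of that set other than Het replicate 3, at adjusted p up to 0.140 for Cox6b1 and 0.132 for Cox8a. Cycs, the somatic cytochrome c, was at 27.4, 30.3 and 34.9 in Het and at 39.9, 35.8 and 38.4 in KO testis (0.30 ± 0.10, adjusted p = 0.0704), and Cox7b, an X-linked subunit, was at 9.36, 6.94 and 7.82 against 10.7, 10.8 and 8.46 (0.30 ± 0.14, adjusted p = 0.166). In spermatocytes all 4 had positive differences of 0.37 to 0.49 that did not pass (adjusted p = 0.0604 to 0.134), and at P14 the differences were 0.03 to 0.13. Markers of somatic cells were also higher in KO in P18 testis: 5 of 18 Sertoli markers passed (27.8%, against 5.68% of all genes) and none was lower. The sum of the Sertoli list was 1671 to 2018 in Het and 2178 to 2227 in KO. Macrophage markers summed to 54.4 to 63.6 in Het and 79.5 to 89.7 in KO, with 6 of 9 higher (66.7%, against 5.68% of all genes). Spermatogonia markers were higher in KO for 4 of 13 and lower for 2 in P18 testis (median difference 0.29). These were 30.8% and 15.4%, against 5.68% and 17.2% of all genes. In spermatocytes 6 of 14 were higher and 1 lower (42.9% and 7.14%, against 12.2% and 23.9%), with a median of 0.54. Their sum there was 574 to 599.6 in Het and 656 to 715 in KO. In P18 testis that sum was 385 to 400.2 in Het and 369 to 402 in KO. The part of these cells in the result was not tested.

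Within a library, the ratio of isoform to paralogue does not depend on scaling between libraries. Taken as the isoform's share of the summed level of the pair, Cox8c made up 76.6% ± 8.59 of the pair in P18 Het testis and 33.6% ± 2.35 in KO (SD, n = 3), and 88.4% ± 5.11 and 29.5% ± 5.51 in spermatocytes. Cyct made up 70.0% ± 7.47 of cytochrome c in Het testis and 38.6% ± 0.0511 in KO, and 93.5% ± 2.36 and 73.6% ± 2.79 in spermatocytes. Cox6b2 made up 63.5% ± 5.50 and 33.5% ± 1.81 in testis, and 72.7% ± 9.75 and 26.9% ± 2.44 in spermatocytes. By these length-scaled levels, the somatic form was the more abundant in KO spermatocytes for Cox6b and Cox8 but not for cytochrome c. The cytochrome c share depends on the gene lengths, 3404 bases for Cycs and 655 for Cyct. In reads, the KO spermatocyte libraries held 284 to 337 of Cycs and 155 to 197 of Cyct. Cycs also shares 26.1% of its stretches of 50 bases with other genes, so its count is less certain. By the length-scaled levels, Cox7b2 remained the major form in every group, at 93.6% ± 0.938 and 83.9% ± 0.485 in testis, and at 98.0% ± 0.784 and 92.2% ± 0.962 in spermatocytes. This too depends on the gene lengths, 542 bases for Cox7b2 and 1214 for Cox7b. In reads, the P14 KO libraries held 256, 248 and 272 of Cox7b2 and 358, 309 and 255 of Cox7b. At P14 the shares were already lower in KO, from 27.0% ± 5.91 to 10.2% ± 2.93 for Cox8c, from 24.1% ± 3.78 to 16.2% ± 2.57 for Cyct, from 27.0% ± 2.55 to 17.1% ± 2.58 for Cox6b2, and from 76.2% ± 3.67 to 65.4% ± 4.58 for Cox7b2.

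Averaged over the 3 sets, the log2 ratio of isoform to paralogue was lower in KO than in Het by 1.83 for Cox6b2/Cox6b1, 1.43 for Cox7b2/Cox7b, 2.88 for Cox8c/Cox8a and 1.66 for Cyct/Cycs. Each difference had p = 0.00025 in a two-sided exact permutation test of genotype within sets, the smallest that the 8000 regroupings can give, and the same after Benjamini-Hochberg adjustment over the 4 pairs. Within a single set of 3 against 3 libraries, the exact test cannot go below 0.1, and all 12 comparisons reached that value.

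**Figure D2:**
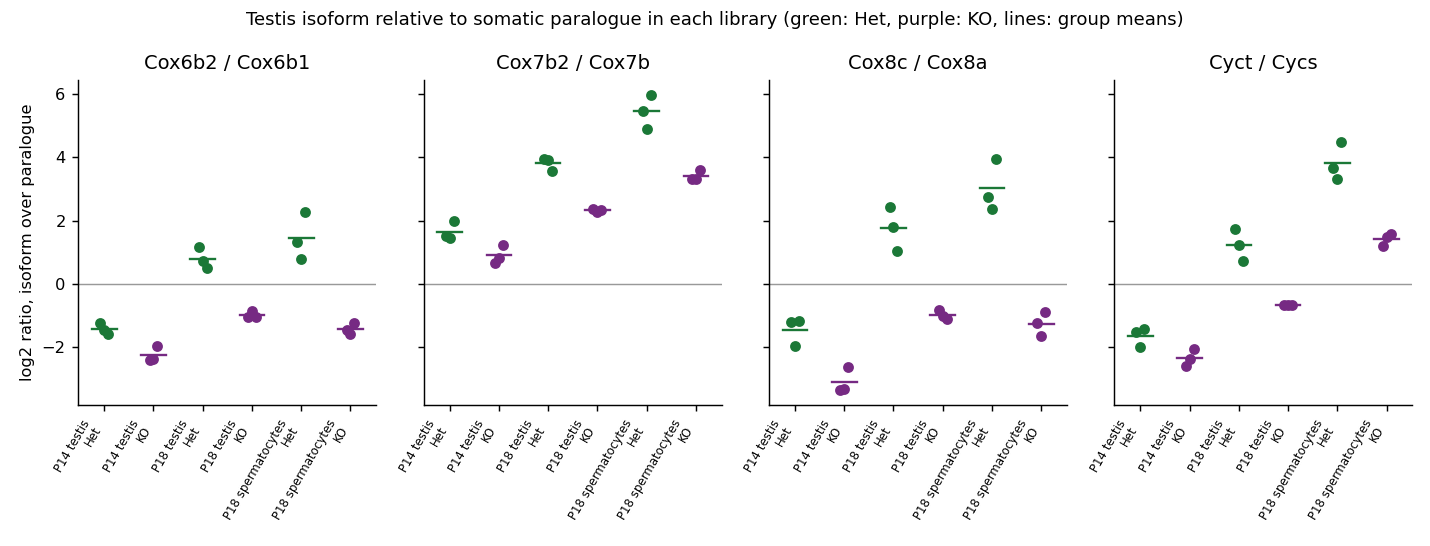
Each panel plots, for each library, the log2 ratio of a testis isoform to its somatic paralogue (y axis) by group (x axis), green for Het and purple for KO, with lines at group means and a grey line at equal levels. The KO points lie below the Het points of the same set in every panel, and Cox7b2/Cox7b stays above 0 in all 6 groups.

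In P18 testis 110 members passed the filter on low values, and 28 were called at an adjusted p under 0.05, where 22.9% of all genes were. Of these, 24 were lower in KO (21.8%, against 17.2% of all genes) and 4 were higher (3.64%, against 5.68%). Their median difference was −0.15 against 0.02 over all genes. In P18 spermatocytes 32 of 107 members were lower (29.9%, against 23.9% of all genes) and 2 were higher (1.87%, against 12.2%), where 36% of all genes were called in either direction, with a median of −0.21 against −0.02. Without the 4 isoforms, 20 of 106 members were lower in testis (18.9%) and 28 of 103 in spermatocytes (27.2%), shares near those of all genes. At P14 none of 110 members passed in either direction (0.175% of all genes did, 0.0113% higher and 0.164% lower), with 10 members lower and 0 higher at an unadjusted p under 0.05, where 1065 and 496 of all 17702 genes were, and a median of 0.00 against 0.01. Counted by libraries alone, all 3 KO libraries lay below all 3 Het libraries for 52 of 110 members in P18 testis (against 26.6% of all genes), 45 of 107 in spermatocytes (against 30.8% of all genes) and 15 of 110 at P14 (against 8.52% of all genes). They lay above for 13 of 110, 10 of 107 and 3 of 110 members, against 21.3%, 23.5% and 7.03% of all genes.

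The counts leaned on single libraries. In P18 testis the 24 lower members became 6 without Het replicate 2, 7 without KO replicate 1, 5 without KO replicate 2 and 7 without KO replicate 3, and the 4 higher members ranged from 1 to 8. In spermatocytes the 32 became 13 without KO replicate 3, and the 2 higher ranged from 0 to 4. The 5 lower members that kept their call when each library was left out in turn in testis were the 4 isoforms and Ndufaf3. In spermatocytes 13 of 32 did, namely the isoforms, Ndufaf3, Ndufa4l2 (tested in 3 of the 6 fits), Ndufa6, Ndufc1, Ndufs6, Uqcrb, Uqcrq, Uqcc3 and Cox16. Ndufa4l2 passed the filter on low values there only through its Het libraries, so the fits without a Het library could not lose its call. With the values as deposited, the median of all genes moved to 0.12 in testis and 0.17 in spermatocytes. The calls were then 11 higher and 20 lower in testis and 12 higher and 26 lower in spermatocytes, and the members' median minus that of all genes was −0.16 and −0.18, against −0.17 and −0.19 after rescaling. Of all genes, 2473 were then higher and 2860 lower in testis, and 3986 and 3351 in spermatocytes. After rescaling, these were 1066 and 3228 in testis and 1933 and 3794 in spermatocytes. A fit over all 18 libraries called 5 higher and 14 lower in testis and 19 higher and 36 lower in spermatocytes. Of all genes, it called 1569 higher and 2842 lower in testis and 4858 higher and 4148 lower in spermatocytes.

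**Figure D3:**
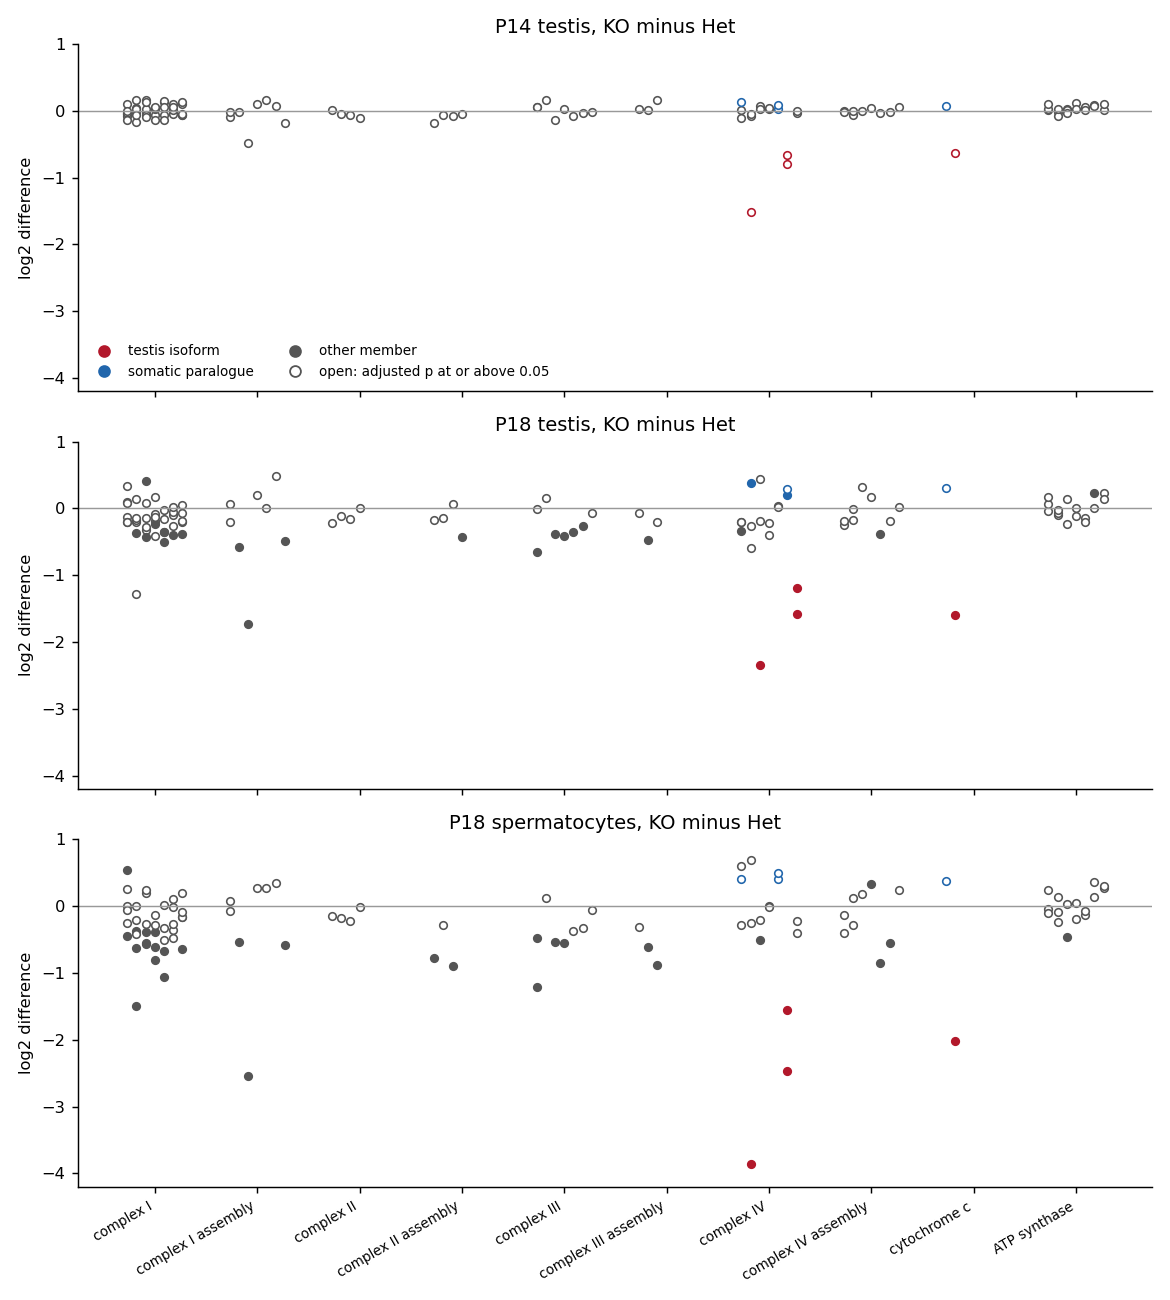
Each point is 1 tested member, placed by complex (x axis) at its log2 difference, KO minus Het (y axis), in P14 testis, P18 testis and P18 spermatocytes from top to bottom. Filled points passed an adjusted p of 0.05, red marks the testis isoforms and blue their somatic paralogues. The red points are the lowest of complex IV and cytochrome c in every panel, Ndufaf3 is the low point of complex I assembly, and the medians of ATP synthase are −0.01 in both P18 sets.

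Complex I, the NADH dehydrogenase, had 8 of 39 tested subunits lower in P18 testis KO (20.5%, against 17.2% of all genes) and 1 higher (2.56%, against 5.68%). In spermatocytes 13 of 38 were lower (34.2%, against 23.9%) and 1 higher (2.63%, against 12.2%), and the medians were −0.17 and −0.28. The testis shares stand near those of all genes. Ndufc1, Ndufs6, Ndufb5 and Ndufb10 were lower in both sets. Ndufc1, an accessory subunit of the membrane arm, fell from 26.5 ± 3.94 to 18.5 ± 0.793 in testis and from 27.5 ± 6.78 to 12.8 ± 0.946 in spermatocytes (SD, n = 3; −0.49 and −1.05, adjusted p = 0.0265 and 0.00457). Ndufb10, another accessory subunit, was at 45.1, 41.0 and 41.0 in Het testis and 33.5, 32.3 and 32.7 in KO (−0.36 ± 0.06, adjusted p = 0.0108), and fell by 0.62 in spermatocytes (adjusted p = 0.0174). Its testis call was lost without Het replicate 2 or KO replicate 2 (adjusted p up to 0.056).

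Ndufa4, counted here under complex I by its symbol but found in complex IV, and its paralogue Ndufa4l2 moved in opposite directions in spermatocytes. They were the 1 higher and 1 of the 13 lower complex I calls there. Ndufa4 rose from 18.9, 20.6 and 19.7 to 28.7, 34.5 and 24.4 (0.54 ± 0.13, adjusted p = 0.0203), a call lost without Het replicate 1 or KO replicate 1 (adjusted p up to 0.0878). Ndufa4l2 fell from 2.56, 2.43 and 4.56 to 0.647, 0.869 and 0.807 (−1.49 ± 0.25, adjusted p = 0.00465), a low gene with 9 to 77 reads per spermatocyte library. It passed the filter on low values there only through its Het libraries. In P18 testis neither passed (0.34, adjusted p = 0.0635, and −1.27, adjusted p = 0.0537).

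Of the X-linked members, Ndufb11, a membrane-arm subunit, rose in P18 testis from 27.3, 29.9 and 29.9 to 40.5, 37.6 and 38.1 (0.41 ± 0.06, adjusted p = 0.00897), the 1 higher call that was kept when each library was left out in turn. In spermatocytes it was at 14.5, 14.3 and 10.4 in Het and at 16.5, 15.8 and 14.1 in KO, where the groups overlapped (0.24 ± 0.15, adjusted p = 0.233). Ndufb11 shares 17.5% of its 50-base stretches with Gm6444 or Rbm10, so its count is less certain. Ndufa1, the most abundant complex I subunit on average over the libraries, ranged from 68.7 to 146 over the 18 libraries with no call in any set (−0.04, 0.09 and 0.25).

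The assembly factors of complex I held the largest difference outside the isoforms. Ndufaf3, an early-acting assembly factor, was at 75.1, 49.7 and 41.9 FPKM in P18 Het testis and at 15.4, 16.7 and 15.9 in KO, 3.30-fold lower (−1.72 ± 0.21, adjusted p = 0.00575). In spermatocytes it was at 69.6, 57.0 and 132 in Het and at 11.7, 13.0 and 15.6 in KO, 5.85-fold lower (−2.55 ± 0.30, adjusted p = 0.00132). The Het libraries stood in the same order as for the isoforms, and at P14 the gap was small, with 9.36, 7.75 and 8.24 RPKM in Het against 5.04, 5.51 and 7.41 in KO (−0.48 ± 0.14, adjusted p = 0.369). The gene lies at chr9:108565537-108567434 (minus strand), and 2.64% of its exon bases overlap Impdh2 on the other strand. Whether reads were counted by strand is not given in the sources used here. Ndufaf2 and Ndufaf7 were also lower in both P18 sets, so 3 of 8 complex I assembly factors were lower in each (37.5%, against 17.2% and 23.9% of all genes), but 65.6% of the exon bases of Ndufaf2 lie opposite B230220B15Rik, so its count is uncertain.

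Complex II, the succinate dehydrogenase, had 0 of 4 subunits called in any genotype comparison. Its catalytic flavoprotein Sdha was at 52.1, 50.8 and 47.8 in Het and at 40.6, 44.7 and 44.7 in KO testis (−0.21, adjusted p = 0.0592), and Sdhd differed by 0.01. Of the assembly factors, Sdhaf4 fell by 0.42 in testis and by 0.89 in spermatocytes (adjusted p = 0.016 and 0.015), Sdhaf1 fell by 0.77 in spermatocytes (adjusted p = 0.0154) and differed by −0.17 in testis (0.253), and Sdhaf2 passed in neither (−0.14 and −0.28). Since 69.6% of the exon bases of Sdhaf1 lie opposite E130208F15Rik, its reads cannot be assigned with certainty. The Sdhaf4 call was lost without Het replicate 2 or any KO library in testis and without KO replicate 3 in spermatocytes, and that of Sdhaf1 without Het replicate 1 or KO replicate 3.

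Complex III, the cytochrome bc1 complex, had the highest share of subunits called among the 5 complexes, as counted by the symbol rule. Of its 8 such subunits, 5 were lower in P18 testis and 4 in spermatocytes, with none of the 8 higher (62.5% and 50%, against 17.2% and 23.9% of all genes). Their medians were −0.31 and −0.43. The complex III subunits Cyc1 and mt-Cytb, which the rule leaves out, were called higher in KO spermatocytes and were not called in testis. None of the 5 testis calls was kept when each library was left out in turn, and in spermatocytes those of Uqcrb and Uqcrq were. Uqcrq, a small subunit, was at 52.5, 43.2 and 37.2 in Het testis and at 28.2, 28.4 and 26.7 in KO (−0.65 ± 0.12, adjusted p = 0.0173). In spermatocytes Uqcrq was at 42.5, 41.1 and 63.7 in Het and at 19.4, 23.4 and 19.2 in KO (−1.21 ± 0.18, adjusted p = 0.0036). Its groups did not overlap in either set, and at P14 they did, with a difference of 0.05. The testis call was lost without Het replicate 2 or any KO library (adjusted p up to 0.067), while the spermatocyte call was kept without each.

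Uqcrc1, a core subunit, fell from 43.0, 36.1 and 33.0 to 26.9, 28.4 and 27.8 in testis (−0.42, adjusted p = 0.0323) and from 46.4, 42.2 and 59.8 to 33.0, 34.2 and 32.9 in spermatocytes (−0.55, adjusted p = 0.02). Uqcrb, which shares 25.5% of its 50-base stretches with other genes, fell by 0.38 and 0.53 (adjusted p = 0.0171 and 0.00918). Uqcr11, the most abundant complex III gene over the libraries, did not pass in any set (0.16, 0.16 and 0.12). Among assembly factors, Uqcc2 fell from 90.0, 69.7 and 64.5 to 53.4, 52.6 and 53.2 in testis (−0.48, adjusted p = 0.0405) and Uqcc3 from 14.6, 15.4 and 21.6 to 8.53, 9.59 and 8.78 in spermatocytes (−0.88, adjusted p = 0.00631), whereas Uqcc1 differed by −0.07 and −0.31 with no call. Without Het replicate 2 or any KO library, the testis calls of Uqcrc1 and Uqcc2 were lost (adjusted p up to 0.0948 and 0.119).

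In complex IV, 4 of 17 subunits were lower (23.5%, against 17.2% of all genes) and 2 higher (11.8%, against 5.68%) in P18 testis, and 4 of 16 were lower (25%, near the 23.9% of all genes) and 0 higher in spermatocytes. The testis isoforms were 3 of the 4 lower subunits in each set. Cox4i1, the ubiquitous form of subunit 4, fell from 135, 117 and 114 to 94.7, 96.9 and 97.5 in testis (−0.33, adjusted p = 0.0266), and was at 153, 161 and 204 against 136, 155 and 131 in spermatocytes, where the groups overlapped (−0.29, adjusted p = 0.137). Cox7a2 fell by 0.51 in spermatocytes (adjusted p = 0.03) and differed by −0.40 in testis (adjusted p = 0.0523). Cox6a1, the most abundant complex IV gene over the libraries, showed differences of 0.03, 0.04 and 0.00. Cox4i2, the form of subunit 4 known from lung, reached at most 1.96 FPKM, and the muscle-type forms Cox6a2 and Cox8b at most 0.441 and 1.97. Cox7a1, also a muscle-type form, was at 10.03 to 17.6 in P18 testis and was not called (0.45, adjusted p = 0.0569). The Cox4i1 call was lost without Het replicate 2 or any KO testis library (adjusted p up to 0.0905) and that of Cox7a2 without KO replicate 3 of the spermatocytes (0.106).

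Of the complex IV assembly factors, Cox16 fell by 0.38 in testis and by 0.85 in spermatocytes (adjusted p = 0.0245 and 0.0143), but 56.8% of its exon bases overlap Gm20498 on the same strand, so its reads cannot be assigned with certainty. Cox17, a copper chaperone, fell by 0.55 in spermatocytes (adjusted p = 0.0147). Cox15, which takes part in heme a synthesis, rose by 0.33 there (adjusted p = 0.0441), a call lost when any 1 library was left out. Cox20, the most abundant of these factors over the libraries, has 91.1% of its exon bases opposite Hnrnpu, so its level is uncertain. Cox20, Cox14 and Cox18 did not pass (−0.28, 0.18 and 0.25 in spermatocytes).

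ATP synthase stood closest to no difference, with 0 of 16 tested subunits lower and 1 higher in P18 testis, 1 of 16 lower in spermatocytes (6.25%, against 23.9% of all genes), and medians of −0.01 in both. Of all genes, 17.2% were lower and 5.68% higher in P18 testis. Atp5a1, the alpha subunit of the catalytic head and the most abundant member of the complex on average over the 18 libraries, was at 135, 129 and 123 in Het testis against 121, 130 and 127 in KO (−0.03), and at 156, 143 and 183 against 146, 157 and 162 in spermatocytes (−0.05). The groups overlapped in all 3 sets. Atp5g1, 1 of 3 genes for the membrane c ring, rose from 10.2, 10.6 and 10.3 to 12.6, 12.3 and 11.7 in testis (0.23 ± 0.06, adjusted p = 0.0365), a call lost when any 1 library was left out. Atp5g2 (0.22) and Atp5g3 (0.07) did not pass there. Atp5j, a stalk subunit, fell by 0.47 in spermatocytes (adjusted p = 0.0422) but kept its call only without Het replicate 2 or Het replicate 3, and Atp5h differed by −0.24 (adjusted p = 0.141).

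Whether the genotype difference itself changed with fraction or age was tested by interaction terms. Between spermatocytes and testis at P18, 2 of 110 members were called (1.82%, against 2.1% of all genes, 0.0904% higher and 2% lower), both more negative in spermatocytes: Ndufa6 (−0.69 ± 0.15, adjusted p = 0.0474) and Ndufv3 (−0.82 ± 0.15, adjusted p = 0.0273). Ndufv3, a flavoprotein subunit of complex I, was at 9.82, 10.8 and 10.5 in Het testis and 12.1, 11.7 and 11.6 in KO, but at 4.23, 4.34 and 5.29 in Het spermatocytes and 2.57, 3.26 and 3.05 in KO. The isoforms did not pass this test, with Cox8c at −1.59 ± 0.36 (adjusted p = 0.0507), Cox6b2 at −0.97 (0.113), Cyct at −0.50 (0.314) and Cox7b2 at −0.44 (0.419). With scaling by the median of ratios, 0 members passed, and of all genes 7 were higher and 79 lower.

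Between the ages, 85 members whose values rest on the same gene length in both sets could be compared, and 6.61% of all genes were called. Of these members, 4 had a more negative KO difference at P18 (4.71%, against 6.31% of all genes) and 1 a more positive one (1.18%, against 0.305%). They were Ndufaf3 (−1.25 ± 0.27, adjusted p = 0.0256), Uqcrq (−0.72, 0.0335), Uqcrc1 (−0.46, 0.0438) and Ndufb7 (−0.35, 0.0246), and the X-linked Ndufb11 (0.37, 0.0433). Cyct (−0.97, adjusted p = 0.0501) and Cox6b2 (−0.78, 0.0537) did not pass, and Cox8c could not be compared because its length differed. With the values as deposited, the calls were 1 higher and 2 lower (200 and 842 of all genes, against 49 and 1013 in the fit reported). With a replicate block, 0 members were called for age (19 higher and 414 lower of all genes). None of the 7 interaction calls of either kind held when each library was left out in turn.

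In Het alone, the members were compared between fractions and ages. Spermatocytes had 39 of 110 members higher than P18 testis (35.5%, against 30.1% of all genes) and 27 lower (24.5%, against 30.5%), where 60.6% of all genes were called. The annotated pseudogene Ndufs6b is among the 27. Without overlap, 38 members lay above (30.3% of all genes) and 29 below (31.9%). With the values as deposited, which moved the median of all genes to −0.19, the split was 22 higher and 39 lower. Of all genes, 3956 were then higher and 7451 lower, against 6000 and 6065 after rescaling. Sdha (0.81, adjusted p = 2.03e-06), Ndufv1, the FMN subunit of complex I (0.86, 7.84e-07), Cox4i1 (0.66, 0.000104) and Atp5a1 (0.48, 0.000171) were higher in spermatocytes, and Cox8c was the 1 isoform called (0.82, 0.0171). Cycs was at 27.4 to 34.9 in Het testis and 4.61 to 6.44 in Het spermatocytes (4.71-fold lower, adjusted p = 6.05e-07), Cox7b fell 2.51-fold (adjusted p = 2.76e-05) and Cox7a1 6.38-fold (adjusted p = 4.4e-06). Sertoli marker sums moved in the same direction, as given above, and 17 of 18 Sertoli markers were lower in spermatocytes (94.4%, against 30.5% of all genes).

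Some members share sequence with pseudogenes. Of the 11 protein-coding members more than 1 log2 unit lower in Het spermatocytes, 9 share at least 1 stretch of 50 bases with a pseudogene (Atp5g2, Atp5l, Ndufab1, Ndufb4, Ndufs5, Cox7b, Cox7c, Cox20 and Cycs), and 26.1% of Cycs stretches are shared. Of the tested protein-coding members, 45 share such a stretch and 63 do not. Of the 45, 14 were higher and 19 lower (31.1% and 42.2%), and of the 63, 25 were higher and 7 lower (39.7% and 11.1%). The 4 isoforms, Cox6b1, Cox8a and Ndufaf3 share none. The part of the shared sequence in the result was not tested further.

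From P14 to P18, 45 of 85 comparable members were higher in Het testis (52.9%, against 31.2% of all genes) and 12 lower (14.1%, against 30.5%), where 61.6% of all genes were called. The annotated pseudogenes Ndufb4c and Cox6c2 are among the 12. Without overlap, 47 members lay above (34% of all genes) and 11 below (33%). With the values as deposited, the calls were 61 higher and 7 lower. Of all genes, 6452 were then higher and 3375 lower, against 5008 and 4896 after rescaling. Cox6b2 rose 3.43-fold (adjusted p = 2.42e-06), Cyct 3.11-fold (1.99e-05), Cox7b2 2.59-fold (3.89e-05), Ndufaf3 5.23-fold (1.76e-06) and Uqcrq 2.00-fold (3.64e-05). Their paralogues Cox6b1, Cox7b and Cycs were lower at P18 (−0.44, −0.77 and −1.23, adjusted p = 9.5e-05, 0.000597 and 3.09e-07). All 12 testable late spermatocyte markers were higher at P18 (against 31.2% of all genes). The annotated pseudogene Ndufb4c was at 54.0 ± 0.953 RPKM in Het at P14 and 0.387 ± 0.229 FPKM at P18, and Cox6c2 at 87.2 ± 4.60 and 1.42 ± 0.706 (SD, n = 3). Age and processing cannot be told apart in these comparisons.

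Other genes of the pathway were followed from lists of mitochondrial genes. None of any list passed at P14. The 13 protein genes of mitochondrial DNA had 0 calls in P18 testis (median 0.23), and in spermatocytes all 7 that passed the filter were higher in KO, by 0.41 to 0.58. Of all genes, 22.9% were called in P18 testis and 12.2% were higher in spermatocytes. mt-Cytb, the cytochrome b of complex III, rose from 2884 ± 60.9 to 4171 ± 290 FPKM (SD, n = 3; 0.53 ± 0.09, adjusted p = 0.00506), and mt-Co1, the catalytic subunit of complex IV, from 4152 ± 86.1 to 5534 ± 384 (0.41 ± 0.09, adjusted p = 0.0133). The other 6 (mt-Nd3, mt-Nd4l, mt-Co2, mt-Co3, mt-Atp6 and mt-Atp8) were below the filter there. The RNA of the 13 genes summed to 46112 to 51507 RPKM in the P14 Het libraries against 17564 to 18927 FPKM in P18 Het testis. mt-Nd3 and mt-Nd4l, the 2 compared between the ages, were lower at P18 in Het by 7.02 to 7.08 log2 units. Age and processing cannot be told apart in these values, and the part of the counting of these genes was not tested.

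Of 38 other subunit and assembly genes, 3 were lower (7.89%, below the 17.2% of all genes) and 1 higher (2.63%, against 5.68%) in P18 testis. In spermatocytes 12 were lower (31.6%, above the 23.9% of all genes) and 2 higher (5.26%, against 12.2%). Cyc1, the heme subunit of complex III that the symbol rule leaves out, rose in spermatocytes from 61.6 ± 2.50 to 80.4 ± 5.46 (0.38, adjusted p = 0.0164). Higd2a, a complex IV assembly factor, fell by 0.31 in testis and 0.54 in spermatocytes (adjusted p = 0.0342 and 0.0111). Of 15 genes of the citric acid cycle, 3 were lower (20%, against 17.2% of all genes) and 2 higher (13.3%, against 5.68%) in testis. In spermatocytes 4 were lower (26.7%, against 23.9%) and 4 higher (26.7%, against 12.2%). The lower shares were near those of all genes, and the higher shares stood above them. Idh3b, a subunit of NAD-dependent isocitrate dehydrogenase, fell from 21.7 ± 5.41 to 9.73 ± 0.444 in spermatocytes (−1.09, adjusted p = 0.00388), while Fh1, fumarase, rose from 11.2 ± 0.940 to 16.7 ± 1.34 (0.56, adjusted p = 0.00774).

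Coenzyme Q synthesis and other electron donors had 18 tested genes. In testis 1 was lower and 2 higher (5.56% and 11.1%, against 17.2% and 5.68% of all genes). In spermatocytes 1 was lower and 5 higher (5.56% and 27.8%, against 23.9% and 12.2%). Coq4 was the lower gene in both, from 7.25 ± 1.26 to 3.95 ± 0.246 and from 10.3 ± 3.47 to 3.36 ± 0.434 (adjusted p = 0.0106 and 0.00438). Of 10 genes of mitochondrial fusion, fission and cristae, the same 3 were lower in both sets (Mfn2, Mff and Chchd6, −0.56 to −0.89). That is 30% in each, against 17.2% of all genes in testis and 23.9% in spermatocytes. Of 78 mitochondrial ribosomal protein genes, 13 were lower in testis (16.7%, against 17.2% of all genes) and 18 in spermatocytes (23.1%, against 23.9%), which is the rate of all genes, while 0 and 3 were higher (3.85% in spermatocytes, against 12.2%). Of the biogenesis genes, 1 of 16 was lower in testis (Polg) and 2 of 15 higher in spermatocytes (Pprc1 and Tfam, the mitochondrial transcription factor A). These shares were 6.25%, against 17.2% of all genes, and 13.3%, against 12.2%. Of 7 nucleotide carriers and porins, 1 was lower and 1 higher in testis (Vdac2 and Slc25a5) and 2 lower in spermatocytes (Vdac2 and Vdac3). In testis each direction was 14.3% (against 17.2% and 5.68% of all genes), and in spermatocytes 28.6% were lower (against 23.9%).

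Genes whose group means most resembled those of the isoforms were found by Pearson correlation of log2(value + 0.5) over the 6 group means among 12583 protein-coding genes. For Cox6b2 they were Fbp1, Spink2, Ropn1l, 1700018B08Rik and Nme5 (r = 0.999). For Cox7b2 they were 2610301B20Rik, Rsph1, Meikin, Morn5 and Rnf32, for Cox8c Mgat4d, Chst1, Ropn1l, Cfap65 and Cox6b2, and for Cyct Dnajc5g, Spa17, Atp8b3, Cfap57 and Spag6l, all at r = 0.998 or 0.999. With 6 points that share 3 sets of libraries, many genes lie this close: for Cox6b2, the ranks were 8 for Cox8c, 47 for Cyct and 168 for Cox7b2.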

How the data were processed

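Polyadenylated RNA from 18 libraries was sequenced. Per the labels' protocols, RNA came from testes by Trizol extraction, and a NEBNext Ultra II DNA kit was used. Per the submitters' processing notes, CASAVA 1.9, STAR 2.6.1a, featureCounts and edgeR 3.28.1 were used on GRCm38, with no role given for each. The authors deposited RPKM values per gene for P14 and FPKM values per gene for both P18 sets, on other gene models. The minimum of 1 in at least 3 libraries, a scaling of each library (a trimmed mean of log ratios) within the sets compared, and log2(value + 0.5) preceded limma 3.58.1 (R 4.3.3), with a robust trend in the spread and Benjamini-Hochberg adjustment over all genes tested (threshold 0.05). All adjusted p-values come from this test. Interactions used both sets concerned, and comparisons across age used only genes of equal length in both tables. Symbols on more than 1 entry (Atp5o at P18) were left out, and P14 symbols were matched through older synonyms (Atp5f1, Usmg5 and 2010107E04Rik).

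Gene lengths turned the values back into whole reads for 92.9% to 99.1% of low values per library, which gave the depth. The reads given for members lay within 0.05 of a whole read. The limma scripts were tested on simulated data. Ratios used an exact permutation test in Python 3.11.15. Sequence shared with other transcripts was counted in stretches of 50 bases.

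The members and the gene lists were chosen with earlier results of these data known. Named members were the isoforms and paralogues, tissue forms, X-linked members, up to 6 called members per direction and comparison with the largest difference, and in each complex the most abundant member and those farthest from its median. Other genes named, and the pathway genes given as examples, were chosen after their values were seen. Alternatives were other scalings, pseudocounts, filters, voom on the recovered reads, a fit of all 18 libraries, a replicate block and leaving out each library.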

Additional observations from a re-analysis of the deposited data

Results flagged for a closer look

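The interaction term in limma called 7 members for fraction or age. For fraction, 2 of 110 members were called (1.82%, against 2.1% of all genes). For age, 4 of 85 were more negative at P18 and 1 more positive (4.71% and 1.18%, against 6.31% and 0.305% of all genes). The fraction share and the more negative age share were thus not above those of all genes. Between P18 spermatocytes and testis, the KO minus Het difference was more negative in spermatocytes for Ndufa6, an accessory subunit of complex I (−0.69, adjusted p = 0.0474), and for Ndufv3 (−0.82, adjusted p = 0.0273). Ndufa6 was at 26.7, 23.8 and 25.9 FPKM in Het testis and 22.0, 20.5 and 24.3 in KO, where the groups overlapped, and at 19.6, 19.1 and 27.4 in Het spermatocytes and 12.6, 12.7 and 11.4 in KO, where they did not. Without 1 library in turn, Ndufa6 kept its call in 2 of 12 fits (highest adjusted p 0.236) and Ndufv3 in 4 of 12 (0.154).

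Between P18 and P14 testis, the difference was more negative at P18 for Ndufaf3 (−1.25, adjusted p = 0.0256), Uqcrq (−0.72, 0.0335), Uqcrc1 (−0.46, 0.0438) and the complex I subunit Ndufb7 (−0.35, 0.0246), and more positive for Ndufb11 (0.37, 0.0433). Ndufb7 was at 5.71, 5.45 and 5.26 RPKM in Het and 6.10, 5.81 and 6.21 in KO at P14, and at 9.79, 9.41 and 9.41 FPKM in Het and 8.51, 8.12 and 7.99 in KO at P18, apart in both sets and in opposite directions. Ndufaf3, Ndufb7, Ndufb11, Uqcrc1 and Uqcrq kept their calls in 4, 4, 3, 2 and 2 of 12 fits without 1 library (highest adjusted p 0.0718, 0.0844, 0.104, 0.107 and 0.0971). With a replicate block, all 5 of these age calls were lost, as were the fraction calls of Ndufa6 and Ndufv3, while 1 member, Cox8c, was called for the fraction. Which cell types carried these differences was not tested.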

How the results depend on the processing

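No named call reversed. At P14 the 0 members lower became 4 with voom on the recovered reads and 1 in a fit of all 18 libraries, and 0 to 1 without 1 library. Of all genes, 29 were lower in the fit reported, 234 with voom and 46 in the 18-library fit. In P18 testis the 4 higher became 11 with the values as deposited and 1 with no filter (1 to 8 without 1 library), and the 24 lower became 14 in the 18-library fit (5 to 29 without 1 library). For all genes there, the 1066 higher became 2473 and 357, and the 3228 lower became 2842, under the same settings. In spermatocytes the 2 higher became 12 with the values as deposited, 0 with no filter and 19 in the 18-library fit (0 to 4 without 1 library), and the 32 lower became 19 with no filter (13 to 34 without 1 library). For all genes, the 1933 higher became 3986, 1122 and 4858 in this order, and the 3794 lower became 3430. The 2 more negative members of the fraction interaction became 0 with median of ratios scaling, 1 with the values as deposited, 1 with pseudocount 1, 0 with no filter and 4 with a mean of at least 5 (0 to 5 without 1 library). In the same order, the 399 more negative of all genes became 79, 232, 297, 135 and 405. For the age interaction, the 1 higher and 4 lower became 1 and 2 as deposited, 0 and 2 with no filter and 0 and 1 with voom (0 to 2 higher and 0 to 9 lower without 1 library). The 49 higher and 1013 lower of all genes became 200 and 842, 37 and 825, and 16 and 237 in this order. Spermatocytes against testis gave 25 higher and 7 lower of members sharing no 50-base stretch with a pseudogene (fewer genes), and 22 higher as deposited (30 to 42 higher and 22 to 33 lower without 1 library); with a mean of at least 5, the members' median fell below that of all genes (−0.12). P18 against P14 gave 3 lower of members sharing none and 7 lower as deposited (39 to 44 higher and 10 to 12 lower without 1 library). Where no cause is given, the cause was not tested.

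The correlations between libraries do not settle whether replicate numbers pair the samples, and the fits reported did not pair them. Same-numbered libraries' deviations correlated at 0.08 to 0.10 at P14, −0.03 to 0.03 in P18 testis and 0.06 to 0.23 in spermatocytes. Each sample correlated best with its own number at P14 and in spermatocytes but not in P18 testis. With a replicate block the calls were 2 higher and 16 lower in P18 testis, 3 and 26 in spermatocytes, 1 lower for the fraction interaction, 0 and 0 for the age interaction, 24 higher for spermatocytes against testis and 27 higher for P18 against P14. The same counts for all genes were 424 and 2290, 1838 and 3812, 245, 19 and 414, 4503, and 3420.

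Differences near 0 changed sign. The difference of Cox6b1, KO vs Het, P14 testis (0.03 in the fit reported) was −0.0413 without KO replicate 1 and up to 0.0777 without the others in turn. In the fraction interaction, Cox8a (−0.05) was 0.0187 with median of ratios scaling and 0.11 as deposited, and −0.23 to 0.22 without 1 library. That of Cycs, genotype by fraction interaction, P18 (−0.00) was 0.0625 and 0.15 under these scalings, 0.0163 with pseudocount 0.1 and 0.0573 with voom, and −0.14 to 0.26 without 1 library. Depth limits low members most: Cox7b had 35 to 64 reads per spermatocyte library.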
